A study of Mus musculus with 4 samples.

Results

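Carboxylesterases were examined in colonic epithelial cells of mice lacking the Polycomb proteins Bmi1, Mel18 or both. The family list held 10 genes, named by symbol: Ces1d, Ces1e, Ces1f, Ces1g, Ces2a, Ces2b, Ces2c, Ces2e, Ces2f and Ces3b. Probe sets with 1 gene symbol covered 9 of them among 19946 genes on the array. Ces2c was not analysed here. Of the 9 genes, 7 reached a log2 intensity of 6 on at least 1 array, the floor used here for a readable signal, as did 12527 of all genes. The list was drawn up with the values on these arrays known, so every level and difference below is a description and no test was made on it.

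Each genotype was measured on 1 Affymetrix Mouse Gene 1.0 ST array, and nothing here has a replicate or a standard deviation. The 4 arrays carried RNA of C57BL/6 mice, 6 to 8 weeks old at the start: WT, Bmi1ΔIEC (Bmi1 deleted in intestinal epithelium), Mel18ΔIEC (Mel18, gene symbol Pcgf2, deleted there) and Bmi1ΔIEC Mel18ΔIEC, the double deletion, called DKO. All 4 genotypes, the wild type included, had received azoxymethane (10 mg/kg), a colon carcinogen, and then 3.5% dextran sulfate sodium in the drinking water for 5 days, which injures the colonic lining, and were killed on day 12. Cells were shaken off the colon wall in EDTA (5 mM) with no sorting described. The sources used here do not give the promoter that drove the deletion or the number of mice behind each array.

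Carboxylesterases are serine hydrolases of the endoplasmic reticulum that split ester bonds in lipids, drugs and other foreign compounds. In the mouse the family has expanded by gene duplication. Ces1 genes are known best from liver and fat, where some of their products hydrolyse stored triglyceride, and Ces2 genes are typical of the absorptive epithelium of the gut and of the liver. In the gut they are known for the first-pass hydrolysis of ester prodrugs and for handling absorbed acylglycerols.

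Bmi1 had a log2 intensity of 7.25 on WT, 7.43 on Bmi1ΔIEC, 6.999 on Mel18ΔIEC and 7.64 on DKO, and Pcgf2 read 6.96, 6.72, 6.84 and 6.81 in the same order. Bmi1 read higher than on WT on both arrays labelled as lacking it. The sources used here do not say which exons were removed or whether the probes lie in them, so these levels do not check the labels, and every genotype below is the one on the label. Of 16 pan-epithelial markers, 16 were above the floor on every array, with a summed intensity between 56926 and 62258. The DKO array differed most from the others, with Pearson correlations of 0.878 to 0.906 across the 12527 genes against 0.978 to 0.982 among the other arrays. The scaled median absolute deviation of log2 differences across genes was 0.19 for Bmi1ΔIEC against WT, the closest pair of arrays, and 0.57 for DKO against WT. The 10 seminal vesicle markers summed to an intensity of 16311 on WT and to between 178 and 387 on the deletion arrays. These genes belong to another organ, and WT stands apart in them. Olfactory receptor genes, which serve as a view of unexpressed probe sets, had a median log2 intensity of 3.93 over 1027 genes and a 95th percentile of 5.52.

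The carboxylesterase genes lie in 2 blocks on mouse chromosome 8, 1 with Ces1 genes and Ces5a and another with Ces2, Ces3 and Ces4a. The RefSeq table (GRCm38.p6) held promoters, from 250 bases before to 50 after the transcription start, for 7 of the 10 genes: Ces1e, Ces1g, Ces2a, Ces2c, Ces2e, Ces2f and Ces3b. The promoters of Ces2a, Ces2e and Ces2f are shown because these genes were highest on the DKO array, next to that of Ces2g, a neighbour outside the list that was not. Capitals mark the longest run of bases common to the first 3 of them, a search made after the values were seen.
Ces2a promoter, chr8:104733753-104734052, plus strand: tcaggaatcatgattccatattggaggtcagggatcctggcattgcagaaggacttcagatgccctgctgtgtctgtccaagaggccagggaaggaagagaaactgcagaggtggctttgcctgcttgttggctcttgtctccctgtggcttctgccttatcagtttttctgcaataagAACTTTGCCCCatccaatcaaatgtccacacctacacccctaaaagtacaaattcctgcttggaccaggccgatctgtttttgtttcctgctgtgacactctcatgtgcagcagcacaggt
Ces2e promoter, chr8:104926010-104926309, plus strand: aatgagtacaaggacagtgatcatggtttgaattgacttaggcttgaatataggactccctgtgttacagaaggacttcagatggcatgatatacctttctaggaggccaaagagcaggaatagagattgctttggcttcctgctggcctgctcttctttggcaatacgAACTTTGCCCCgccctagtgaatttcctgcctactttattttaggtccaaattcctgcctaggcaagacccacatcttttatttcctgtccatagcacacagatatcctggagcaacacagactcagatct
Ces2f promoter, chr8:104947106-104947405, plus strand: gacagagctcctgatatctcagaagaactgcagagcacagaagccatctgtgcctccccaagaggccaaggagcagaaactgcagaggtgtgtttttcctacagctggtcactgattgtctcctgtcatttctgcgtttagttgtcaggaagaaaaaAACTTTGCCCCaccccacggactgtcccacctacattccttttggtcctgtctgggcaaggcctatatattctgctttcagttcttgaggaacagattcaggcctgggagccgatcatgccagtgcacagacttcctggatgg
Ces2g promoter, chr8:104961468-104961767, plus strand: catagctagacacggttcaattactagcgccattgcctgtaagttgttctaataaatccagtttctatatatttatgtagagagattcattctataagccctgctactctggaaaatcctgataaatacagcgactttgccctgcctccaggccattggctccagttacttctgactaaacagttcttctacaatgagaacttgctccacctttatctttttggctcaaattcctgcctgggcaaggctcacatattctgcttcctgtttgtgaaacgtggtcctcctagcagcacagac

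The common run, AACTTTGCCCC, is 11 bases long and starts at position -71 from the start site in Ces2a, at -81 in Ces2e and at -93 in Ces2f. Counted on both strands, it stood in 6 of 32851 RefSeq promoters of this length (0.0183%), those of the 3 Ces2 genes and of Txnrd3, Gm15638 and Gm52828. The run was defined by these 3 Ces2 promoters, so its presence in them was fixed by the search. Nothing is read from the share, and a tie of the run to the levels was not tested. Ces2b, also highest on DKO, had no promoter in the table. The run was not in the windows of Ces2c, Ces2g, Ces2h, Ces3b or of the Ces1 genes in the table. Among the 3 other genes only Txnrd3, a thioredoxin reductase, was found on the array, with a log2 difference of -0.85 between DKO and WT. As a measure of likeness over the whole window, the 15 pairs of Ces2 promoters were identical at 39.7% to 66.3% of 300 bases in a global alignment, and the 36 pairs of a Ces1 with a Ces2 promoter at 38.3% to 48.7%.

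The promoter of Ces3b is shown because this gene had the largest difference between DKO and WT on the list. Capitals in its window mark 3 short motifs. The first is GTTAAT, part of the motif of HNF1 factors, at position -56 from the start site. The next, at position -43, is AGATAA, bound by factors of the GATA family. The last, at position -30, is TATAAA, the core promoter element of that name.
Ces3b promoter, chr8:105083505-105083804, plus strand: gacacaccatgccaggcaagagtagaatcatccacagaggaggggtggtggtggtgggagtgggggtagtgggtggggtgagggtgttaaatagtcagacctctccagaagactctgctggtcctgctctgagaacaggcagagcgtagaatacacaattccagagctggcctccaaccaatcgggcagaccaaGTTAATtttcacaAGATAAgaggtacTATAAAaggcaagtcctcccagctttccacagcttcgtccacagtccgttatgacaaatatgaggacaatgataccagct

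These motifs were searched on both strands beside 4 others. TATAAA was in the windows of Ces1g and Ces3b and in 13.6% of all RefSeq promoters, and GTTAAT was in that of Ces3b and in 7.1% of all. AGATAA was in those of Ces1e, Ces1g and Ces3b (11.2% of all) and TTTATG, a CDX motif, in those of Ces1e and Ces1g (11.9%). AGGTCA, the core of nuclear receptor motifs, was in that of Ces2a (16.3%). CAAAGTCCA, an HNF4 motif, and TGACNNNGC, the core of the antioxidant response motif, were in none of the 7 windows (0.475% and 12.4% of all). These counts describe the letters of the windows and say nothing of factors bound there.

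The 4 listed Ces2 genes measured were each highest on the DKO array. Ces2a, an acylglycerol and prodrug hydrolase of gut and liver, had a linear intensity of 217 on WT, 219 on Bmi1ΔIEC, 352 on Mel18ΔIEC and 739.5 on DKO. WT and Bmi1ΔIEC were level, Mel18ΔIEC lay above them and DKO above all, 3.41-fold over WT (log2 difference 1.77) and 2.10-fold over the next array. Ces2f read 203, 119.7, 251 and 614 in that order. It had the widest range of the 9 genes, 2.36 on the log2 scale, with Bmi1ΔIEC lowest, and DKO was 3.03-fold over WT (1.60) and 2.44-fold over Mel18ΔIEC.

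Ces2b read 74.4 on WT, 67.8 on Bmi1ΔIEC, 82.6 on Mel18ΔIEC and 185 on DKO. The 3 arrays other than DKO spanned only 0.28 on the log2 scale, and DKO was 2.48-fold over WT (1.31). Ces2e read 1510.3, 1029, 1531 and 2792. WT and Mel18ΔIEC were level, Bmi1ΔIEC was lower and DKO was 1.85-fold over WT (0.89), short of 2-fold, which it passed after cyclic loess (1.07). In all 4 genes Bmi1ΔIEC lay below Mel18ΔIEC, by log2 differences of -0.28 in Ces2b to -1.07 in Ces2f.

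Ces3b, an esterase known from liver, was near background on 3 arrays and above the floor on DKO. It read 21.5 on WT, 20.1 on Bmi1ΔIEC, 24.8 on Mel18ΔIEC and 88.1 on DKO, a 4.09-fold difference from WT (2.03). It passed the floor through the DKO array alone, where its log2 intensity was 6.46, so a high value there was needed for it to be counted at all. Its size is rough: the lower values lie within the range of olfactory receptor probe sets, and with 32 added to each intensity before log2 the difference was 1.17.

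**Figure D1:**
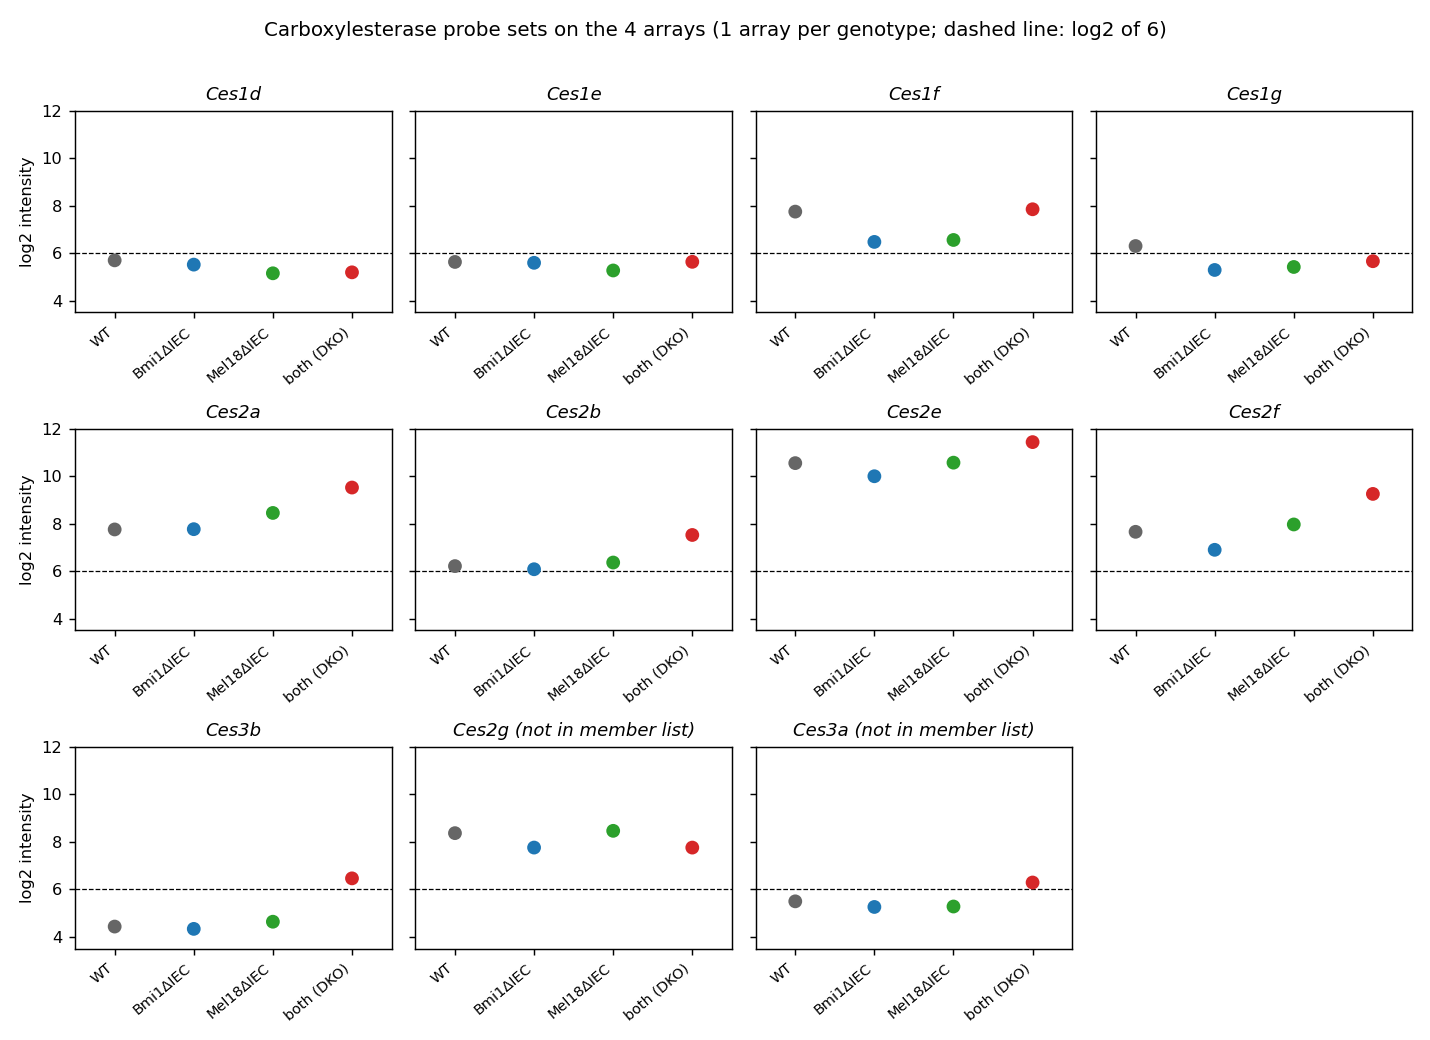
Log2 intensity (vertical axis) of 9 listed carboxylesterase genes and of Ces2g and Ces3a on the arrays of the 4 genotypes, 1 point per array, with the floor of 6 as a dashed line. Ces2a, Ces2b, Ces2e, Ces2f and Ces3b are highest on DKO, Ces1f is high on WT and DKO, and Ces1d and Ces1e stay under the floor.

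Ces1 genes followed other patterns. Ces1f, a triglyceride hydrolase related to that encoded by Ces1d, read 216 on WT, 89.0 on Bmi1ΔIEC, 94.1 on Mel18ΔIEC and 231 on DKO. The values form a high pair, WT and DKO, and a low pair, the single deletions, 2.42-fold and 2.29-fold below WT (log2 differences -1.28 and -1.20). DKO differed from WT by 0.10. Across 12527 genes, 3 (0.0239%) had both WT and DKO at least 2-fold above both single deletions. These were Ces1f, Mboat2, a lysophospholipid acyltransferase, and Ceacam10, the latter 2 singled out after their values were seen. The rule has the shape of the Ces1f profile, which was already known, so nothing is read from this share. Ceacam10 read 11.03 on WT, 8.49 on Bmi1ΔIEC, 8.50 on Mel18ΔIEC and 9.64 on DKO on the log2 scale.

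Ces1g, a hydrolase known for limiting fat secretion by the liver, read 78.9 on WT, 39.2 on Bmi1ΔIEC, 42.7 on Mel18ΔIEC and 50.6 on DKO. WT alone was above the floor (log2 6.30), and the log2 differences from WT were -1.01, -0.88 and -0.64. With 32 added before log2 the first became -0.64, short of 2-fold. Ces1d, triacylglycerol hydrolase, read 51.9, 45.8, 35.5 and 36.5, and Ces1e, the egasyn that anchors beta-glucuronidase in the endoplasmic reticulum, 49.5, 48.3, 38.6 and 49.7. Both stayed under the floor on all 4 arrays, so their differences from WT on DKO, -0.51 and 0.01, rest on signals near background, and that of Ces1e turned to -0.06 after cyclic loess and -0.07 after median centring.

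Markers of other tissues were read beside these values. The seminal vesicle sum was 16311 on WT, where Ces1d and Ces1g were highest and Ces1f read 216. On DKO the sum was 178 and Ces1f read 231. The part of that tissue in the levels of Ces1d, Ces1f and Ces1g was not tested. Nor was its part in Ceacam10, which was highest on WT at 11.03 on the log2 scale. The adipocyte list, 11 genes found, summed to 488 on WT, 522 on Bmi1ΔIEC, 464 on Mel18ΔIEC and 536 on DKO, with 4 genes above the floor. Among its members, Adipoq and Lep were at 4.22 or less and 4.53 or less on the log2 scale. Car3 read 6.40 on WT, 5.16 on Bmi1ΔIEC, 5.41 on Mel18ΔIEC and 5.07 on DKO, highest on WT like Ces1g, and Fabp4 was higher on DKO than on WT by 1.25. The hepatocyte list, 12 genes found, summed to 1934 on WT, 2313 on Bmi1ΔIEC, 1950.4 on Mel18ΔIEC and 4004 on DKO. Of these genes 7 were under the floor on every array, Alb among them at 5.76 or less, while Hp and Tat were higher on DKO than on WT by 2.03 and 1.17. The part of fat or liver cells in the carboxylesterase levels was not tested. In bulk RNA of this kind, fewer cells of a type and less RNA per cell cannot be told apart.

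**Figure D2:**
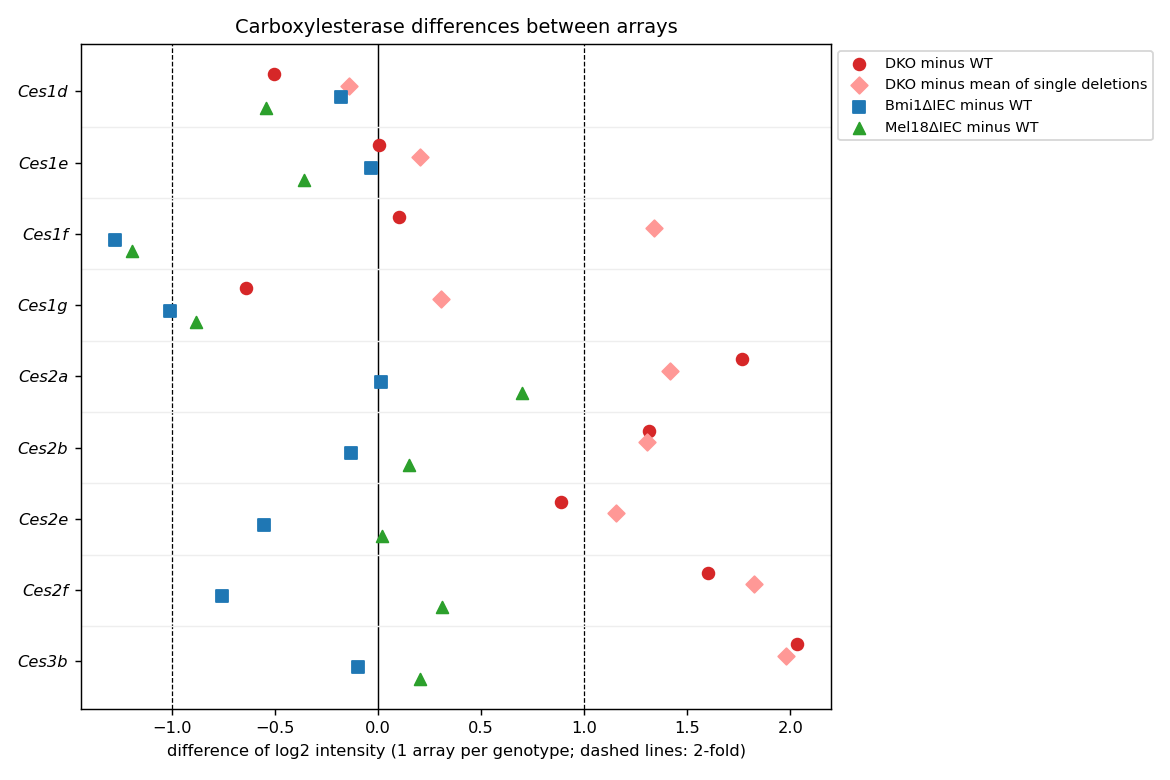
Log2 differences (horizontal axis) of 9 carboxylesterase genes for DKO against WT, DKO against the mean of the single deletions, and each single deletion against WT, with 1 array per genotype and dashed lines at 2-fold. The Ces2 genes and Ces3b lie right of 0 in both DKO comparisons, and Ces1f and Ces1g lie at or near the left dashed line in both single deletions.

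DKO against WT sets the array with both genes deleted beside the wild type. Of the 7 genes above the floor, 4 were at least 2-fold higher (Ces2a, Ces2b, Ces2f and Ces3b) and 0 lower, against 7.33% and 8.19% of all 12527 genes in those directions. The listed genes were chosen with this contrast in view, so nothing is read from that count. The median difference was 1.31 over the 7 genes, 0.89 over all 9 genes found and 1.46 over the 4 Ces2 genes, against -0.05 over all genes above the floor. Over the 4 Ces1 genes it was -0.25.

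DKO against the mean of both single deletions leaves out the WT array. Of the 7 genes, 6 were at least 2-fold higher, Ces1g being the exception at 0.31, and 0 were lower, against 7.33% and 6.51% of all genes. Over all genes this was 918 higher and 816 lower, a split that became 1046 and 555 after cyclic loess. The largest differences were 1.98 for Ces3b and 1.82 for Ces2f, followed by Ces2a (1.41), Ces1f (1.34), Ces2b (1.30) and Ces2e (1.15). The median was 1.34 over the 7 genes and 1.30 over all 9, against -0.07 over all genes. Both comparisons hold the DKO array, so their likeness is no separate support. Against each other array in turn DKO was at least 2-fold higher in Ces2a, Ces2b, Ces2f and Ces3b, where 5.02% of all genes met that rule, and it was the highest array, by any margin, in 6 of the 7 genes, where 35.2% of all genes did so. DKO was at least 2-fold below each other array in 0 of the 7 (4.72% of all genes) and was the lowest array in 0 (46% of all genes). The listed genes were chosen with the DKO values known, and Ces3b passed the floor through DKO alone. Nothing is therefore read from any count in this comparison.

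Bmi1ΔIEC against WT gave readings below WT for 8 of the 9 genes found, several of them by little. The median difference over all genes above the floor was -0.02. Of the 7 listed genes above the floor 2 were at least 2-fold lower, Ces1f and Ces1g, and 0 higher. Ces1g passed the floor through WT alone, so a high value there was needed for it to be counted, and nothing is read from this count. Over all genes 0.359% were at least 2-fold lower and 0.551% higher, 45 and 69 genes, a split that median centring turned to 52 and 44. Ces2f (-0.76) and Ces2e (-0.55) came next. Ces2b (-0.13), Ces3b (-0.10) and Ces2a (0.01, or -0.06 after median centring) differed by less than 0.19, the spread across genes of this pair of arrays. So did Ces1d (-0.18) and Ces1e (-0.04), both under the floor on all arrays. Bmi1ΔIEC was the lowest of the 4 arrays in 6 of the 7 genes, where 18.4% of all genes were lowest on it. DKO was lowest in 0 of the 7 genes, which were chosen with its values known, and in 46% of all genes. The shares are therefore not alike, and nothing is read from this count.

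Mel18ΔIEC against WT gave lower readings for Ces1f (-1.20) and Ces1g (-0.88) and higher ones for Ces2a (0.70) and Ces2f (0.31). The spread of differences across genes for this pair of arrays was 0.22. Ces2e (0.02, or -0.0012 after cyclic loess), Ces2b (0.15) and Ces3b (0.20) lay within it. Ces1d (-0.55) and Ces1e (-0.36) were under the floor on all arrays. Ces1f was the only gene at least 2-fold lower, and with 32 added before log2 its difference was -0.97, short of 2-fold. At 2-fold, 1 of the 7 genes was lower and 0 higher, where 0.814% of all genes were lower and 0.144% higher. The genes were picked with these arrays known, so nothing is read from this count. Both single comparisons share the WT array, so the low Ces1 readings in them are not independent.

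A departure from additivity was taken on the log2 scale as the difference of DKO from WT less the differences of both single deletions from WT. It was positive in all 9 genes found, largest in Ces1f (2.57), Ces2f (2.05) and Ces3b (1.93), then Ces2e (1.42), Ces2b (1.29), Ces1g (1.25) and Ces2a (1.06), and smaller in Ces1e (0.40) and Ces1d (0.22). The 7 genes above the floor were thus all at least 2-fold above additivity, where 8.19% of all genes were so and 6.43% were below, and again nothing is read from a count over genes picked on these arrays. Ces1f reached its value through lower single deletions, and Ces3b and Ces2b through the DKO array. In Ces3b and Ces2b the single deletions lay near WT, the farthest at a difference of 0.204 (Ces3b on Mel18ΔIEC).

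**Figure D3:**
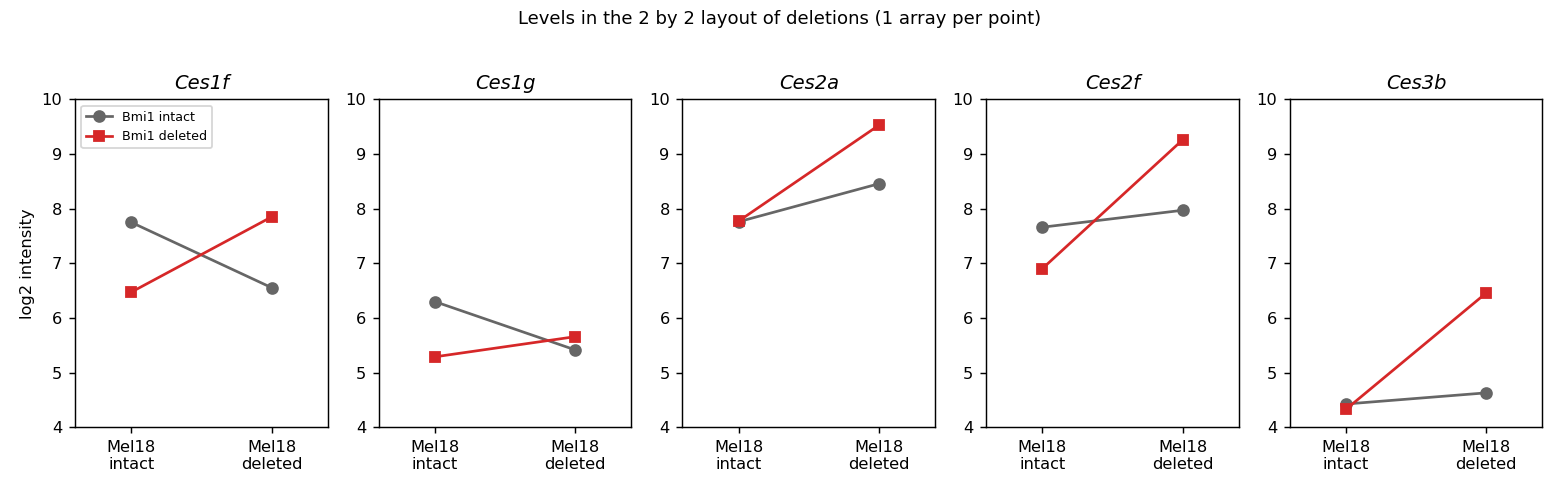
Log2 intensity (vertical axis) of 5 carboxylesterase genes with Mel18 intact or deleted (horizontal axis) and Bmi1 intact (circles) or deleted (squares), 1 array per point. The lines slope in opposite directions for Ces1f and Ces1g. For Ces1f the log2 intensity is 7.75 on WT and 7.85 on DKO but 6.48 and 6.56 on the single deletions, while for Ces3b only the DKO point departs from the rest.

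Other genes of the family were looked up by symbol and 7 of 10 were found, with 2 above the floor. Ces2g, which lies between Ces2f and Ces2h, read 331 on WT, 217 on Bmi1ΔIEC, 354 on Mel18ΔIEC and 217 on DKO, so DKO was as low as Bmi1ΔIEC with a log2 difference of -0.61 from WT. Ces3a, next to Ces3b, read 45.0, 38.2, 38.7 and 78.1, and was higher on DKO than on WT by 0.79 and than the single deletions by 1.02, passing the floor through DKO alone. Ces1a, Ces1b, Ces1c, Ces4a and Ces5a stayed under the floor on every array, with differences of DKO from WT between -0.05 and 0.06. Ces1h, Ces2d-ps and Ces2h were not analysed here.

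The Ces2, Ces3 and Ces4a block held most of the high readings on DKO. Of its 8 carboxylesterase genes found, Ces2a, Ces2b, Ces2e, Ces2f, Ces3a and Ces3b were above WT by 0.79 or more, with Ces2g below WT and Ces4a level. The 6 nearest measured genes outside the block, Cdh16, Rrad, Ciao2b, Cbfb, D230025D16Rik and B3gnt9, differed from WT by -0.42 to 0.32. In the Ces1 block the 8 genes found differed by -0.64 to 0.10, and the 6 genes around it by -0.95 to 0.68. Probe sequences were not examined, and signal shared between such close paralogs was not tested.

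**Figure D4:**
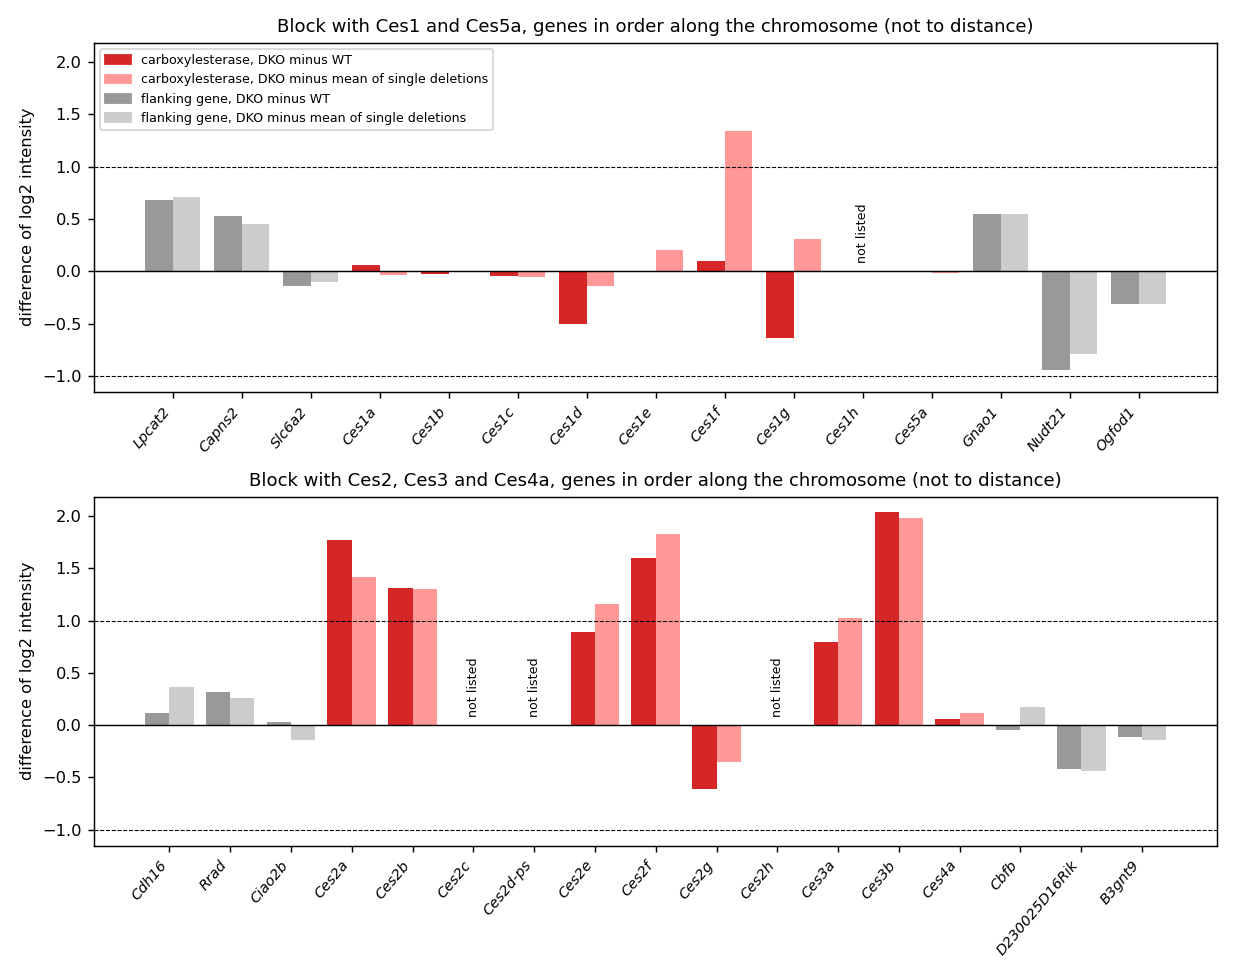
Log2 differences (vertical axis) of DKO from WT and from the mean of the single deletions for the genes of both carboxylesterase blocks and 3 measured genes on each side, in chromosome order and not to distance. In the lower panel 6 carboxylesterases stand at 0.79 or more against WT while the 6 flanking genes stay between -0.42 and 0.32.

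Likeness among the members was measured over the 4 arrays. Euclidean distance between centred log2 profiles was 0.37 to 0.70 among the 4 Ces2 genes and 0.54 to 0.87 between them and Ces3b, and 0.37 to 1.29 among the 4 Ces1 genes. Ces1f was 0.87 to 1.46 from the Ces2 genes. Its nearest member was Ces1g (0.84), followed by Ces2e (0.87) and Ces2b (1.08). Ces1e (1.12) and Ces1d (1.29), both under the floor on all arrays, were farther from it than these. Outside the list, the profiles nearest to Ces2f were those of 2010106E10Rik (distance 0.16), Nos2, the inducible nitric oxide synthase (0.27), and Cyp2d10, a cytochrome P450 (0.31). Nos2 had log2 intensities of 10.63 on WT, 10.19 on Bmi1ΔIEC, 10.93 on Mel18ΔIEC and 12.26 on DKO. Nearest to Ces1f were Mboat2 (0.14), Trim30d (0.35) and Trim30a (0.37), of which Mboat2 read 8.10, 6.93, 7.05 and 8.39. With 4 arrays such likeness is a description only.

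Related genes were followed in lists drawn up for ester and lipid metabolism. Among neutral lipid and ester hydrolases, 21 of 26 found were above the floor and had a median difference of 0.20 between DKO and WT. Of these 1 was at least 2-fold higher, Pnliprp2, a pancreatic lipase relative (3.02), and 1 lower, Aadac, a microsomal esterase that like the carboxylesterases cleaves drugs and acylglycerols (-2.01). Aadac read 9.55 on WT, 8.53 on Bmi1ΔIEC, 8.92 on Mel18ΔIEC and 7.54 on DKO on the log2 scale, so its order over the arrays was not that of the Ces2 genes. Genes of triglyceride and cholesteryl ester synthesis and packaging had a median of 1.06, with 7 of 13 at least 2-fold higher on DKO and 1 lower. They were led by Mttp, which loads lipid onto apolipoprotein B (3.22), Cidec, a lipid droplet protein (1.93), and Lpin2, a phosphatidate phosphatase (1.77).

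Nuclear receptors and other regulators of detoxification genes were also followed. Of 21 found, 19 were above the floor. Between DKO and WT 0 of them were 2-fold apart in either direction, against 7.33% of all genes higher and 8.19% lower. Their median was 0.08, and single genes ran from -0.88 (Nr5a2) to 0.67 (Nr3c1). Nr1i2, the pregnane X receptor that senses foreign compounds, read 8.94 on WT, 9.04 on Bmi1ΔIEC, 9.11 on Mel18ΔIEC and 9.43 on DKO. Hnf4a, a main regulator of absorptive epithelium, read 11.73, 11.69, 11.77 and 11.72. Nr1i2, Hnf4a, Nr5a2 and Nr3c1 were picked after their values were seen.

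Small bowel and white blood cell markers were higher on the same array as the Ces2 genes. Of the 13 small bowel enterocyte markers above the floor, of 19 found, 10 stood at least 2-fold above WT on DKO and 0 below. Over all genes above the floor the shares were 7.33% and 8.19%. The median difference was 2.89, with Apoa1 (5.44), Enpep (4.18) and Alpi (3.50) in front. Enpep and Apoc3 passed the floor through DKO alone, so a high value there was needed for them to be counted, and nothing is read from the count. The list summed to an intensity of 3039 on WT, 2761 on Bmi1ΔIEC, 3439 on Mel18ΔIEC and 11932 on DKO. Its genes under the floor on every array were Sis, Lct, Treh, Fabp1, Slc2a2 and Cyp3a11. Mature colonocyte markers summed to between 36517 and 39991, with 2 of 14 higher on DKO and 3 lower. Neutrophil markers summed to 5661 on WT, 13619.6 on Bmi1ΔIEC, 2056 on Mel18ΔIEC and 25262 on DKO, and mononuclear phagocyte markers to 4188, 5328, 2998 and 14737. The part of any of these cell types in the carboxylesterase levels was not tested.

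**Figure D5:**
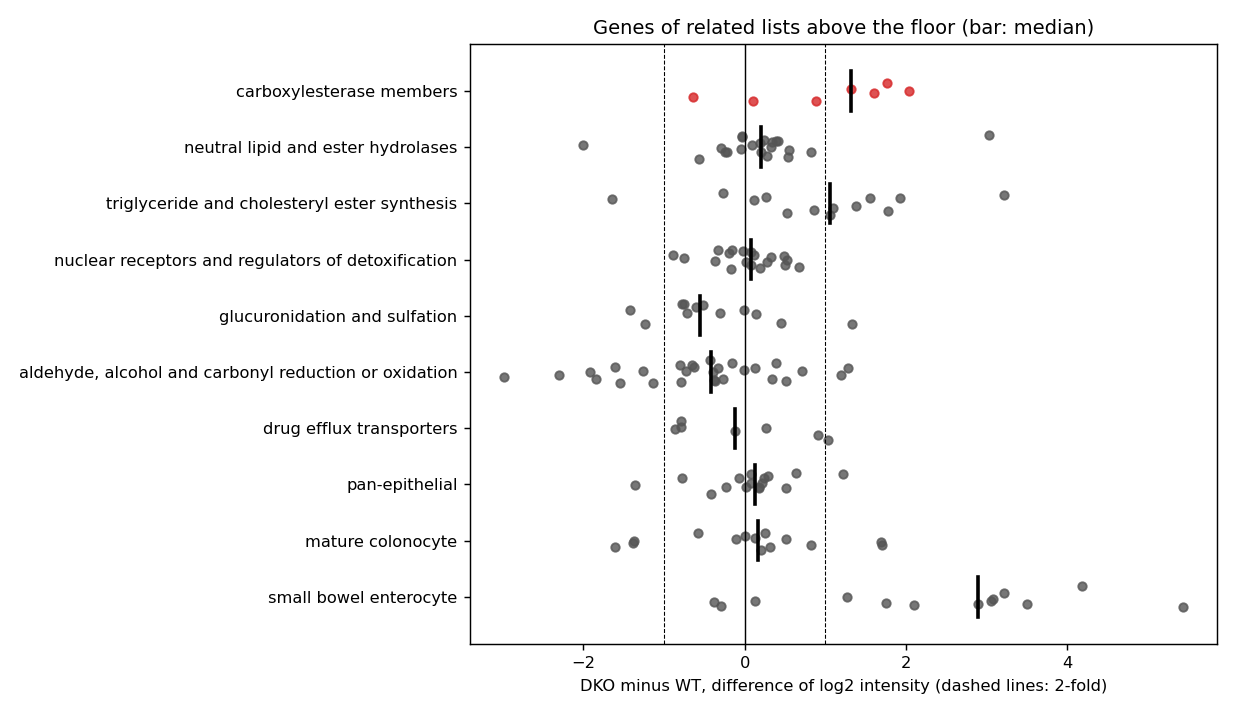
Log2 differences between DKO and WT (horizontal axis) for the carboxylesterase genes and for genes of 9 related lists above the floor, 1 point per gene, with a bar at each median and dashed lines at 2-fold. The carboxylesterases reach from -0.64 to 2.03, regulators of detoxification stay within 2-fold, and small bowel markers have a median of 2.89.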

How the data were processed

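RNA (200 ng per sample) was hybridised to 4 arrays, 1 per genotype. The authors deposited 1 linear intensity per probe set, and the submitters' processing notes name Expression Console and RMA. RMA gives all arrays the same distribution of probe values before they are joined into probe sets, which hides any global shift in RNA. Medians over probe sets still differed between arrays: median centring moved Ces2a in DKO against WT from 1.77 to 1.69. The sources used here name no software version or genome build.

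Log2 was taken of 35556 probe sets. The platform annotation gave 1 symbol to 21797 probe sets and several to 1613, which were not named, and 12146 were not listed with a gene. The brightest probe set stood for each of 19946 genes. Each carboxylesterase on the list had 1 probe set. Differences of log2 values have no test. A gene was counted from 2-fold. The members and gene lists were chosen with earlier results of these data known. The rule for named genes took all family members, both deleted genes, up to 3 genes 2-fold apart from each pathway list, and the 3 nearest profiles to the widest-ranging Ces1 and Ces2 gene. Other genes (cell type markers, flanking genes, Nr1i2, Hnf4a, Nr5a2, Nr3c1, Ceacam10 and Txnrd3) were named outside it, after their values were seen. Intensities give no molecule counts, and the number of arrays limits precision. The difference script was tested on simulated data. Alternatives covered the floor, scaling (limma 3.58.1 in R 4.3.3), an added 32, probe set choice and the fold threshold. Python 3.11.15 and biopython 1.88 were used.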

Additional observations from a re-analysis of the deposited data

Results flagged for a closer look

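Ces1f differed in opposite directions with the same loss in the 2 backgrounds. Loss of Mel18 gave a log2 difference of -1.20 with Bmi1 intact and 1.38 with Bmi1 deleted. Loss of Bmi1 gave -1.28 with Mel18 intact and 1.30 with Mel18 deleted. Each value compares 1 array with 1 other, and the 4 values share the same 4 arrays, so the difference between backgrounds was not tested. No other measured gene on the list had opposite differences of at least 2-fold.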

How the results depend on the processing

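The direction of every carboxylesterase difference called at 2-fold held under each alternative run. With no floor, the median over 9 genes was 0.89 for DKO against WT and -0.18 for Bmi1ΔIEC against WT, where the 7 genes above the floor gave 1.31 and -0.55. With a floor of 8, which left 3 genes, the median for DKO against WT was 1.60, with 2 genes higher, 3 were higher against the single deletions, and 0 were lower on Bmi1ΔIEC or on Mel18ΔIEC. With 32 added before log2, which shrinks differences of dim genes, the medians over 7 genes went from 1.31 to 1.03 for DKO against WT and from 1.34 to 1.13 against the single deletions, and 1 gene was lower on Bmi1ΔIEC (Ces1g at -0.64 no longer counted) and 0 on Mel18ΔIEC (Ces1f at -0.97). At 1.5-fold 1 gene was lower on DKO than on WT, and on Mel18ΔIEC 1 was higher and 2 lower. At 3-fold 2 genes were higher on DKO than on the single deletions and 0 lower on Bmi1ΔIEC or Mel18ΔIEC. Median centring, cyclic loess and the mean of probe sets moved no median or count of the list by more than the limits used (0.19 on the log2 scale, 1.5 times for a count). No paired analysis was possible because each genotype had 1 array and the labels carry no replicate numbers.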

Other observations

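Other enzymes of detoxification were read on the same arrays. Among genes that reduce or oxidise aldehydes, alcohols and carbonyls, 28 of 34 found were above the floor, 8 lay at least 2-fold below WT on DKO and 2 above it, and the median difference was -0.41. They were led by Cbr2, a carbonyl reductase (-2.98), Aldh1a7, an aldehyde dehydrogenase (-2.30), and Cbr3 (-1.91). Glucuronidation and sulfation genes had a median of -0.56 over 12 genes, with 2 lower, Ugt2b35 (-1.43) and Ugt2b34 (-1.24), and 1 higher, the sulfotransferase Sult1d1 (1.33). Of 7 drug efflux transporters above the floor, 1 was higher, Abcg2 (1.03), and 0 lower, with a median of -0.13. None of these differences was tested.

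Between DKO and WT, goblet cell markers, 8 found, had 0 genes 2-fold apart and a median difference of 0.29. Over all genes above the floor, 7.33% were at least 2-fold higher on DKO and 8.19% lower. Markers of lymphocytes were at least 2-fold higher on DKO in 3 of 9 cases and those of endothelium in 4 of 7. For fibroblasts and smooth muscle it was 2 of 11, with 0 lower in each of these lists. Of 5 squamous markers 4 were lower on DKO and 1 higher, and of 2 pancreatic acinar markers above the floor 1 was lower, Cela1 (-1.10).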
